A study of Saccharomyces cerevisiae with 15 samples.

Results

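The small nucleolar RNA (snoRNA) genes of Saccharomyces cerevisiae were taken as every row of the deposited expression table whose identifier starts with snR. There were 81 such rows among 7126. All 81 matched the R64 annotation, which makes 47 of them box C/D snoRNAs and 29 H/ACA snoRNAs. The other 5 are spliceosomal RNAs and not snoRNAs: snR19 is U1, snR14 is U4, snR6 is U6, and snR7-L and snR7-S are the long and short forms of U5. These 5 are kept apart below, and 76 genes remain as snoRNAs.

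The study asked how gene expression depends on contacts of Hsf1, the heat shock transcription factor, with the chaperone Hsp70. Cells grown in rich YPD medium to mid-log phase gave 5 groups of 3 biological replicates. Wild type HSF1 cells were moved to 37 °C for 15 min. The hsf1-mNmC cells have both Hsp70 sites of Hsf1 mutated, hsf1-mC cells the carboxyl-terminal site and hsf1-mN cells the amino-terminal site. These 3 mutants and the last group, wild type HSF1 cells, stayed at 30 °C. The sources used here do not say how the alleles are carried.

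SnoRNAs work in the nucleolus, where they base-pair with precursor ribosomal RNA (rRNA). Box C/D snoRNAs, bound by Nop1, Nop56, Nop58 and Snu13, mostly guide methylation of riboses. H/ACA snoRNAs, bound by Cbf5, Nhp2, Nop10 and Gar1, guide the change of uridine to pseudouridine. A few, among them U3, U14, snR30 and snR10, serve the cleavages that free the small-subunit rRNA. Yeast snoRNAs come from genes of their own, from clusters transcribed as 1 precursor or from introns of other genes. Most are made by RNA polymerase II, then trimmed by nucleases and the exosome to a mature end with no poly(A) tail. A precursor can carry a short-lived tail.

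That biology sets the main limit of these values. The libraries were made from RNA selected on oligo(dT) beads, and mature snoRNAs have no tail to be selected by. What share of the reads came from mature snoRNAs, tailed precursors, unspliced host-gene transcripts or neighbouring transcripts that read through was not tested. A level below is therefore the level in oligo(dT)-selected RNA and not the amount of mature snoRNA in the cell. In bulk libraries, fewer cells and less RNA per cell cannot be told apart. The protocol states no marking of strands, so reads from the opposite strand cannot be told apart from a gene's own.

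The sequences shown are those of the snoRNAs that carry the results below, 5′ to 3′, from the RefSeq R64 genome. Capitals mark box C (TGATGA within the first 25 bases) and box D (CTGA within the last 20) of box C/D genes, and the ACA triplet within the last 8 bases of H/ACA genes. The first 4 had higher levels in heated cells, and the following 3 in mNmC and heated cells.

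snR67: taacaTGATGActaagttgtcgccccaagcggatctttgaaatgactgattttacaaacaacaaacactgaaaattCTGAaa
snR52: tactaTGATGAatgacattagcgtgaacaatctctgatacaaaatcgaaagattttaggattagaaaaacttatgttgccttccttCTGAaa
snR40: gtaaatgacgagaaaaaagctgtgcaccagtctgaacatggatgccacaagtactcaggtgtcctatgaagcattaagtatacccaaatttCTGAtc
snR66: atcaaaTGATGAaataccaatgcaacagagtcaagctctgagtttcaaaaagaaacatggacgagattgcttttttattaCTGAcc
snR65: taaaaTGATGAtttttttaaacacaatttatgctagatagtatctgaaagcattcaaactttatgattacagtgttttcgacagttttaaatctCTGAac
snR71: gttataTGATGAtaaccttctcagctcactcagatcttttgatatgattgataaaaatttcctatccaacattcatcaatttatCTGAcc
snR18: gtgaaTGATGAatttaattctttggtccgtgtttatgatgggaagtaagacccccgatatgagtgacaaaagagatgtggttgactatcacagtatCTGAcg

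The next pair are H/ACA genes. The level of snR49 was lower in heated and in mNmC cells, and that of snR189 was higher.

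snR49: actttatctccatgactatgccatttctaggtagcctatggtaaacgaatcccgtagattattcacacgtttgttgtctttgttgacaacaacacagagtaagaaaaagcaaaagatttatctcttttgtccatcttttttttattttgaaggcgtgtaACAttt
snR189: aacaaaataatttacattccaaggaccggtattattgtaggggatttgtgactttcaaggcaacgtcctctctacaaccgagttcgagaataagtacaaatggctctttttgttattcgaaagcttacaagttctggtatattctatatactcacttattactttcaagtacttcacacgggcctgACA

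Over the whole set, 36 of the 47 box C/D genes held TGATGA and 45 held CTGA in these windows. ACA stood in the last 8 bases of 17 of the 29 H/ACA genes. snR40 has no exact TGATGA there. A missing match says only that these letters are not in the window.

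A pair of libraries stood apart from their labels over these genes. Over the 78 tested snR genes, Spearman correlations of the library labelled mNmC replicate 3 averaged 0.857 with the other mNmC libraries and 0.979 with heated wild type replicates 1 and 2. For the library labelled wild type at 37 °C replicate 3 the averages were 0.842 with the other 37 °C libraries and 0.960 with mNmC replicates 1 and 2. The labels are kept, and tests were run with all 15 libraries as labelled and with these 2 left out (13 libraries). The groups at 37 °C and mNmC then have 2 libraries each, and the spread is pooled over all 5 groups.

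Reads recovered from the deposited FPKM (reads scaled to gene length and to the library's counted reads) show how thin this signal is. The libraries held 15462617 to 25409518 counted reads, of which 8541 to 15910 fell on snR genes, or 0.0413 to 0.0757%. The median gene averaged 45.1 reads per library, 24 genes averaged at least 100 reads and 12 averaged under 10. One read on a gene of 100 bases equals 0.394 FPKM in the deepest library and 0.647 in the shallowest.

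Of the 81 genes, 78 reached 1 FPKM in at least 3 libraries and were tested among 6399 rows in all. The 3 that did not were snR73, a box C/D member of a cluster with 1 read in each of 2 libraries, and both U5 forms. snR7-S, which lies inside snR7-L, was listed at 0 in every library, and snR7-L reached at most 0.991 FPKM. Just inside the filter stood the U6 gene snR6, with a mean of 0.769 FPKM over all libraries, and the box C/D genes snR58, snR53 and snR60, with 1.11, 1.98 and 1.72 FPKM. Genes near the filter can pass through the group in which they are high.

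Summed over the 81 genes, FPKM was 3809 and 3843 in heated wild type replicates 1 and 2 and 3760 in the library labelled mNmC replicate 3. It was 2810 and 2907 in mNmC replicates 1 and 2 and 2760 in the library labelled 37 °C replicate 3. The mC libraries lay between 2173 and 2294, the mN libraries between 2020 and 2133 and wild type at 30 °C between 2275 and 2491. The 2 libraries that stand apart thus sat with the other group again. Box C/D genes summed to 2465, 2598 and 1520 FPKM in heated replicates 1, 2 and 3, against 1208 to 1338 in wild type at 30 °C. H/ACA genes summed to 1263, 1164 and 1197 FPKM in those heated libraries, against 1047 to 1133 at 30 °C. In mNmC replicates 1, 2 and 3 box C/D genes summed to 1522, 1632 and 2423 FPKM. H/ACA genes there summed to 1249, 1233 and 1265 FPKM. The box C/D gene snR67 alone had 665 and 790.2 FPKM in heated replicates 1 and 2, against 93.0 to 103 FPKM in wild type at 30 °C.

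**Figure D1:**
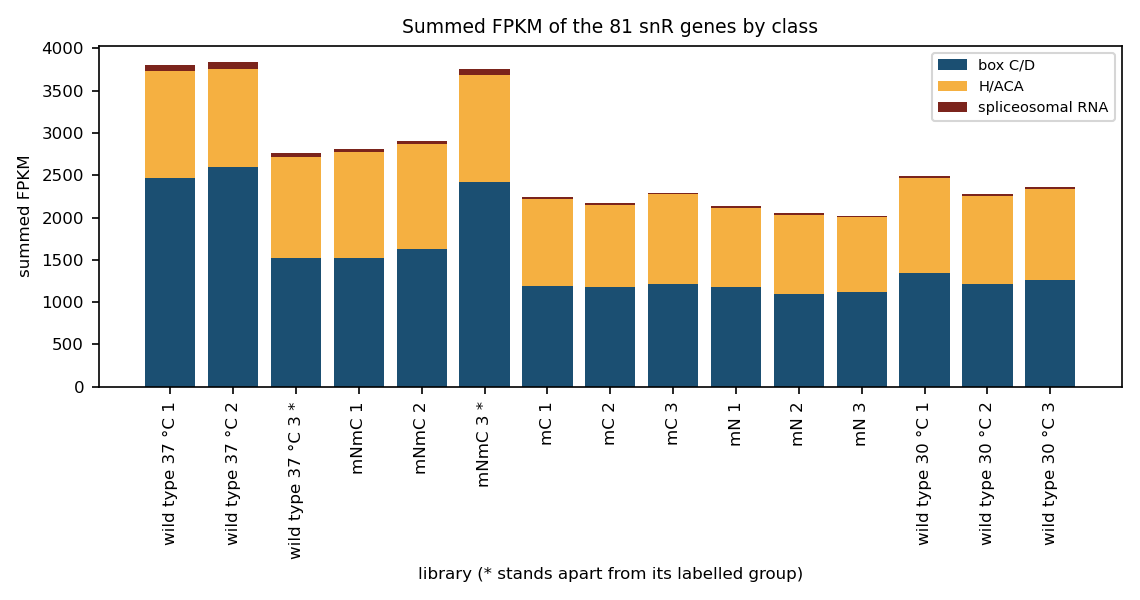
Summed FPKM of the 81 snR genes in each of the 15 libraries, stacked by class (box C/D, H/ACA, spliceosomal RNA), with groups from left to right and an asterisk on the 2 libraries that stand apart. Both heated wild type libraries without an asterisk and the library labelled mNmC replicate 3 sum to 3760 to 3843 FPKM, and the libraries of mC, mN and wild type at 30 °C to at most 2491.

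Heat for 15 min went with higher levels of many snR genes and lower levels of a few. As labelled, 29 of 78 were called higher and 4 lower in wild type at 37 °C against 30 °C (limma, adjusted p under 0.05). Over all 6399 rows, 38.1% were called in either direction, 32.1% higher and 5.97% lower, against 37.2% and 5.13% of the snR genes. Without wild type at 30 °C replicate 2 the 33 calls fell to 18, and without 37 °C replicate 1 or 2 to 21. With 13 libraries, 39 snR genes were called higher and 8 lower, while 65.9% of all rows were called (47% higher, 18.9% lower). All 33 snR genes called as labelled were among the 47 called with 13 libraries. The share called was thus near that of all rows in both fits. The median log2 fold change was 0.44 for snR genes and 0.26 for all rows as labelled, and 0.47 and 0.29 with 13 libraries. Scaling each library to the same upper quartile lowered the median of all rows to 0.04 and that of snR genes to 0.26 as labelled. It gave 21 snR genes higher and 6 lower as labelled, where 29.8% of all rows were called (16.3% higher, 13.5% lower). With 13 libraries it gave 29 and 13, where 64.3% were called (34.3% higher, 30% lower). Groups that do not overlap were common. As labelled, 2824 of 6399 rows were higher in heat without overlap and 626 lower, against 33 and 5 of the 78 snR genes.

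By class, 17 of 46 tested box C/D genes were called higher and 2 lower as labelled, with 21 and 3 in 13 libraries. Of 29 H/ACA genes, 10 were called higher and 2 lower, with 15 and 5 in 13 libraries. Among the 51 snoRNA genes that stand alone, 24 were called higher and 2 lower as labelled, with 31 and 4 in 13 libraries. Of 16 tested genes in clusters, 2 were called higher and 1 lower, with 4 and 1 in 13 libraries. Of 8 in introns, 1 was called higher and 1 lower, with 1 and 3 in 13 libraries. Over all rows 32.1% were called higher and 5.97% lower as labelled, and 47% and 18.9% with 13 libraries. Box C/D and H/ACA genes lay near those shares as labelled (37% and 34.5% higher). Whether these kinds of gene differ was not tested.

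**Figure D2:**
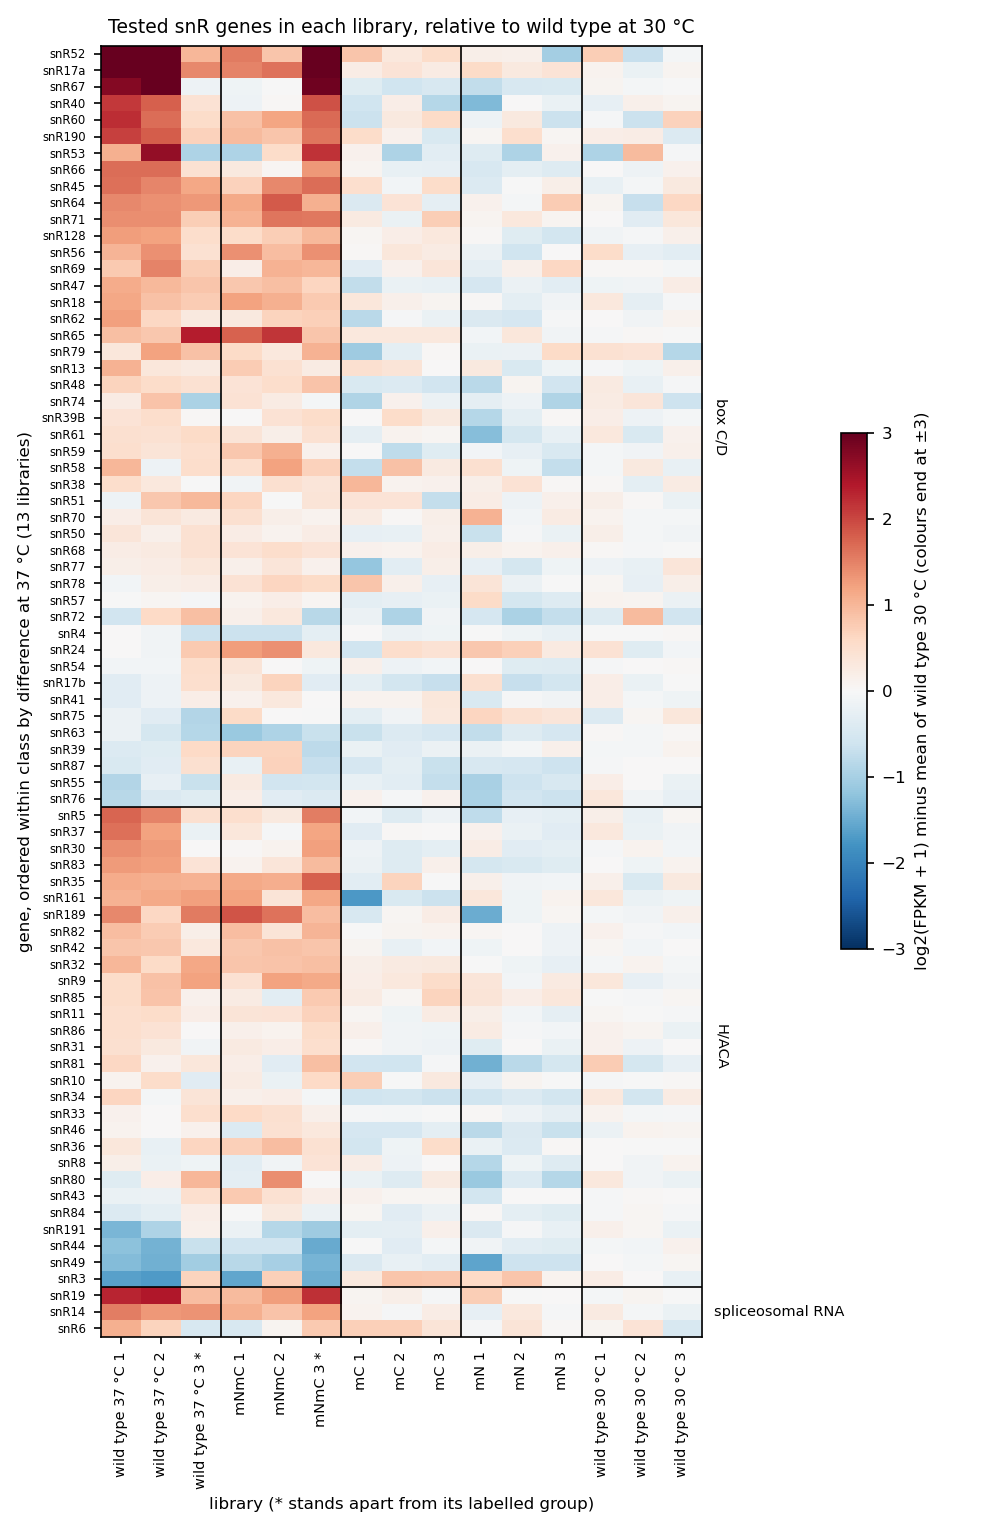
Level of each of the 78 tested snR genes (rows, by class and then by difference at 37 °C) in each of the 15 libraries (columns, 3 a group), as log2(FPKM + 1) minus the mean of wild type at 30 °C. Red is higher and blue lower, the colours end at 3 units, and asterisks mark the 2 libraries that stand apart. The library labelled mNmC replicate 3 has the pattern of the heated libraries 1 and 2, and the library labelled 37 °C replicate 3 that of mNmC 1 and 2.

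The RNAs needed for rRNA cleavage differed among themselves in heated cells. U3, the box C/D RNA that directs the early cleavages towards small-subunit rRNA, is encoded by snR17a and snR17b, whose last 300 bases are 90.7% identical. snR17a had 194, 203 and 36.9 FPKM in wild type at 37 °C (replicates 1, 2 and 3), against 14.1, 11.2 and 13.8 FPKM at 30 °C. The groups did not overlap, and replicate 3 was the lowest of the heated libraries. Its log2 fold change was 3.04 ± 0.60 as labelled (SE, limma adjusted p = 0.00314) and 3.84 ± 0.11 with 13 libraries (adjusted p = 2.87e-10).

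snR17b, the other U3 gene, had 19.5, 22.6 and 35.9 FPKM in wild type at 37 °C, against 29.1, 21.8 and 24.8 FPKM at 30 °C. Its groups overlapped. Its fold change was 0.01 ± 0.32 as labelled (limma adjusted p = 0.991) and -0.24 ± 0.28 with 13 libraries (adjusted p = 0.469). In reads, snR17a had 1188 and 1449 in heated replicates 1 and 2 against 77 to 117 at 30 °C, and snR17b had 119 and 161 against 149 to 209. The gene that was the lower of the pair in every wild type library at 30 °C was the higher of the pair in every heated library. The assignment of reads that match both genes is not stated. Both genes have an intron, and whole reads were recovered at lengths of 333 and 332 bases, shorter than the annotated spans of 490 and 462. The annotated span of snR17a also shares 78 bases with IRC13 on the same strand.

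snR30, the H/ACA RNA required for small-subunit rRNA processing, had 89.9, 83.9 and 34.2 FPKM in wild type at 37 °C, against 33.2, 36.7 and 31.6 FPKM at 30 °C. Replicates 1 and 2 lay far above the 30 °C libraries and replicate 3 among them. The fold change was 0.90 ± 0.36 and adjusted p = 0.0641 as labelled and 1.34 ± 0.15 and adjusted p = 8.99e-06 with 13 libraries (limma), a fit that also leaves out the library labelled mNmC replicate 3. U14 (snR128), which serves both cleavage and methylation of small-subunit rRNA, had 54.5, 52.6 and 32.3 FPKM in wild type at 37 °C, against 20.8, 21.6 and 24.7 FPKM at 30 °C. These groups did not overlap, and the fold change was 0.99 ± 0.20 (limma adjusted p = 0.00331) as labelled and 1.23 ± 0.15 with 13 libraries. snR190, a methylation guide encoded 69 bases before snR128 in a cluster of 2, changed by 1.52 ± 0.36 (limma adjusted p = 0.00791) as labelled and 1.94 ± 0.28 with 13 libraries. snR10, an H/ACA RNA of rRNA processing, was at 0.903 to 2.48 FPKM at 37 °C against 1.34 to 1.45 at 30 °C and was not called. It shares 216 of its 245 bases with the annotated YGL088W on the same strand, so reads in that stretch could not be given to 1 gene by position.

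Among methylation guides, snR52 and snR67 had large heat differences with 13 libraries. snR52 guides sites in both rRNAs and is, unlike most snoRNAs, made by RNA polymerase III. It had 71.1, 71.0 and 7.22 FPKM in wild type at 37 °C, against 5.93, 1.58 and 2.99 FPKM at 30 °C. All heated libraries were above all 30 °C libraries, replicate 3 by little. Its log2 fold change was 3.07 ± 0.87 as labelled (limma adjusted p = 0.0182) and 4.12 ± 0.42 with 13 libraries (adjusted p = 5.46e-06).

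snR67, a guide for the large-subunit rRNA, had 665, 790.2 and 87.4 FPKM in wild type at 37 °C, against 103, 93.0 and 96.5 FPKM at 30 °C. Replicates 1 and 2 and the library labelled mNmC replicate 3, at 737, held the 3 highest snR values, and 37 °C replicate 3 lay below the 30 °C libraries. As labelled the test did not pass (1.87 ± 0.81, limma adjusted p = 0.0851), and with 13 libraries it did (2.88 ± 0.11, adjusted p = 1.71e-09). snR53, which follows snR67 by 265 bases in the same cluster, had 2.99, 10.8 and 0 FPKM in heated cells, against 0, 2.67 and 0.865 FPKM at 30 °C. It rests on 0 to 21 reads per library.

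snR40, a guide for both rRNAs, had 71.4, 56.8 and 21.4 FPKM in wild type at 37 °C, against 12.9, 17.5 and 16.6 FPKM at 30 °C. The groups did not overlap, but the test passed only with 13 libraries (1.96 ± 0.37, limma adjusted p = 0.000624; as labelled 1.45 ± 0.57, adjusted p = 0.0598). snR66, a large-subunit guide, had 129, 129 and 55.6 FPKM in wild type at 37 °C, against 40.6, 36.2 and 43.5 FPKM at 30 °C. It was higher in all heated libraries, by 1.27 ± 0.33 as labelled (limma adjusted p = 0.0127) and 1.67 ± 0.11 with 13 libraries. It lies 163 bases after NME1, the RNA of RNase MRP, on the same strand. NME1 itself had 89.6 to 105 FPKM in heated replicates 1 and 2 against 10.9 to 12.7 FPKM at 30 °C, and how much of the snR66 signal reads through from it was not tested.

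snR71, a large-subunit guide, had 46.0, 45.6 and 28.5 FPKM in wild type at 37 °C, against 17, 13 and 21.4 FPKM at 30 °C, without overlap (1.17 ± 0.26 as labelled, limma adjusted p = 0.00567, and 1.40 ± 0.26 with 13 libraries). snR68, another large-subunit guide and one of the 10 most abundant snR genes, was called higher as labelled by 0.32 ± 0.09 (limma adjusted p = 0.0152), and by 0.25 ± 0.07 with 13 libraries. After upper-quartile scaling it was not called in either fit (0.09 as labelled). snR45, which assists base acetylation in small-subunit rRNA with snR4, was higher by 1.43 ± 0.27 (limma adjusted p = 0.00223) as labelled and by 1.56 ± 0.27 with 13 libraries. Its partner snR4 was not called, at -0.25 ± 0.16 as labelled and -0.05 ± 0.08 with 13 libraries. It was called lower after upper-quartile scaling (-0.48 as labelled, limma adjusted p = 0.0468).

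H/ACA pseudouridylation guides moved in both directions. snR5, with large-subunit targets, had 65.2, 54.4 and 26.7 FPKM in wild type at 37 °C, against 21.4, 16 and 19.5 FPKM at 30 °C, without overlap. The difference was 1.24 ± 0.34 as labelled (limma adjusted p = 0.0160) and 1.61 ± 0.17 with 13 libraries. snR83, with small-subunit targets, was higher by 0.97 ± 0.24 as labelled (limma adjusted p = 0.0102) and 1.25 ± 0.14 with 13 libraries. snR37, with a large-subunit target, was called only with 13 libraries (1.43 ± 0.21, limma adjusted p = 9.51e-05), and had 0.89 ± 0.41 as labelled. snR33, the most abundant snR gene at a mean of 300.3 FPKM, had 305, 281 and 393 FPKM in wild type at 37 °C, against 297, 267 and 270.1 FPKM at 30 °C, and was not called.

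The genes called lower in heated cells as labelled were snR49, snR44, snR76 and snR63, and snR3, snR191, snR39 and snR84 joined them with 13 libraries. snR49, an H/ACA guide for both rRNAs, had 58.5, 52.9 and 70.3 FPKM in wild type at 37 °C, against 145, 139.8 and 150.03 FPKM at 30 °C. The groups lay far apart, and the fold change was -1.26 ± 0.23 as labelled (limma adjusted p = 0.00201) and -1.37 ± 0.23 with 13 libraries. snR44, an H/ACA guide for both rRNAs in an intron of RPS22B, had 54.2, 47.8 and 81 FPKM in wild type at 37 °C, against 125, 122 and 142 FPKM at 30 °C (-1.11 ± 0.24 as labelled, limma adjusted p = 0.00550, and -1.33 ± 0.12 with 13 libraries).

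snR3, an H/ACA guide for large-subunit rRNA, had 2.81, 2.65 and 17.8 FPKM in wild type at 37 °C, against 12.7, 10.8 and 9.13 FPKM at 30 °C. It had 3.0, 18.2 and 3.28 FPKM in mNmC, where replicates 1 and 2 differ as widely. It was called at 37 °C with 13 libraries only (-1.66 ± 0.49, limma adjusted p = 0.0106 with 13 libraries, and -0.88 ± 0.64, adjusted p = 0.281 as labelled), and a level near 3 FPKM occurred in an mNmC library that did not otherwise stand apart.

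Of the spliceosomal RNAs, U1 (snR19) had 52.2, 55.9 and 19.5 FPKM in wild type at 37 °C, against 9.41, 10.4 and 9.70 FPKM at 30 °C. It was higher in every heated library, by 1.87 ± 0.38 as labelled (limma adjusted p = 0.00360) and 2.34 ± 0.19 with 13 libraries. U4 (snR14) had 26.9, 22.7 and 23.5 FPKM in wild type at 37 °C, against 10.6, 8.20 and 7.38 FPKM at 30 °C. It was the snR gene with the smallest adjusted p as labelled (1.40 ± 0.16, limma adjusted p = 9.14e-05; 1.42 ± 0.17 with 13 libraries), and its replicate 3 did not stand apart. U6 (snR6), a polymerase III transcript, stayed at or below 1.95 FPKM everywhere, on 0 to 4 reads per library. It reached 1 FPKM in 5 libraries: heated replicates 1 and 2, the library labelled mNmC replicate 3, and mC replicates 1 and 2. It was called higher in heat with 13 libraries only, and it passed the filter partly through those heated libraries. After upper-quartile scaling, 2 of the 3 tested spliceosomal RNAs were called higher with 13 libraries.

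**Figure D3:**
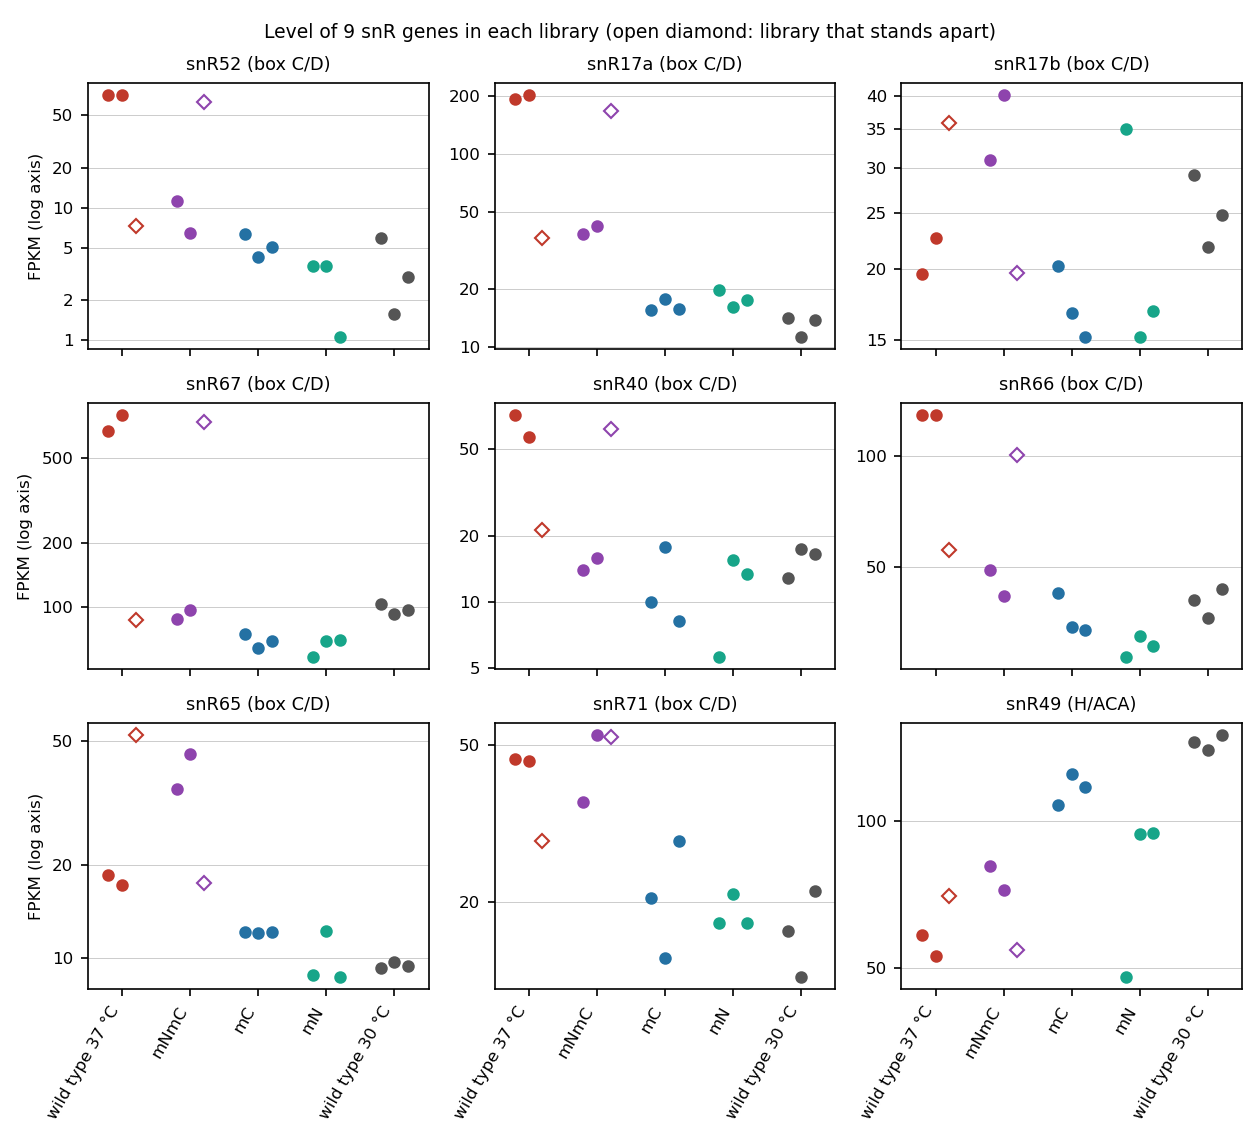
FPKM (log axes) of 9 snR genes in each library, 1 panel a gene, with groups from left to right as wild type at 37 °C, mNmC, mC, mN and wild type at 30 °C. Each point is 1 library and open diamonds are the 2 libraries that stand apart. For snR52, snR17a, snR67, snR40 and snR66 the open mNmC diamond sits near the filled 37 °C points, while for snR65 the open 37 °C diamond, at 52.2 FPKM, sits above the filled mNmC points at 34.9 and 45.5 FPKM.

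In the double mutant mNmC, unheated, 23 of 78 snR genes were called higher and 4 lower than in wild type at 30 °C as labelled (limma). Over all rows 26.9% were called, 24.5% higher and 2.41% lower, against 29.5% and 5.13% of snR genes. Without wild type at 30 °C replicate 2 the 27 calls fell to 16. With 13 libraries, 27 were called higher and 4 lower, beside 48% of all rows (40.6% higher, 7.39% lower). Of the 27 genes called as labelled, 25 were among the 31 called with 13 libraries. The median log2 fold change was 0.48 for snR genes and 0.27 for all rows as labelled, and 0.36 and 0.25 with 13 libraries. After upper-quartile scaling, 14 snR genes were called higher and 4 lower as labelled, where 15.7% of all rows were called (9.5% higher, 6.16% lower). With 13 libraries it gave 18 and 6, where 37.2% were called (20.3% higher, 16.9% lower). As labelled, 2870 of 6399 rows were higher in mNmC without overlap and 520 lower, against 36 and 4 of the 78 snR genes.

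snR65, a methylation guide for large-subunit rRNA, had 34.9, 45.5 and 17.5 FPKM in mNmC (replicates 1, 2 and 3), against 9.27, 9.72 and 9.45 FPKM in wild type at 30 °C. All mNmC libraries were higher, replicate 3 least. The fold change was 1.58 ± 0.38 as labelled (limma adjusted p = 0.00954) and 1.96 ± 0.14 with 13 libraries (adjusted p = 1.58e-06). In heated wild type it had 18.5, 17.3 and 52.2 FPKM, a difference from 30 °C of 1.35 ± 0.38 as labelled (limma adjusted p = 0.0172) and 0.85 ± 0.14 with 13 libraries (adjusted p = 0.000200).

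snR71 had 35.9, 52.9 and 52.4 FPKM in mNmC, against 17, 13 and 21.4 FPKM in wild type at 30 °C, without overlap and with no library standing apart (1.41 ± 0.26 as labelled, limma adjusted p = 0.00233, and 1.33 ± 0.26 with 13 libraries). snR56, a small-subunit methylation guide, was higher by 1.23 ± 0.27 (limma adjusted p = 0.00626) and snR45 by 1.27 ± 0.27 (limma adjusted p = 0.00486) as labelled. With 13 libraries the values were 1.15 ± 0.26 for snR56 and 1.07 ± 0.27 for snR45. snR189, an H/ACA guide for both rRNAs, had 16.1, 13.3 and 7.86 FPKM in mNmC, against 3.46, 3.34 and 4.16 FPKM in wild type at 30 °C. It was higher in all 3 libraries (1.48 ± 0.39 as labelled, limma adjusted p = 0.0163, and 1.75 ± 0.40 with 13 libraries). In heated wild type it was called higher by 1.21 ± 0.39 as labelled (limma adjusted p = 0.0311) and 1.03 ± 0.40 with 13 libraries, but not after upper-quartile scaling (adjusted p = 0.0609 as labelled and 0.0736 with 13 libraries).

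Of the cleavage RNAs, snR17a had 38.5, 42.6 and 167 FPKM in mNmC, against 14.1, 11.2 and 13.8 FPKM in wild type at 30 °C. All mNmC libraries were higher and replicate 3 was far above the other 2. The fold change was 2.24 ± 0.60 as labelled (limma adjusted p = 0.0176) and 1.57 ± 0.11 with 13 libraries (adjusted p = 1.58e-06). snR17b had 31.0, 40.1 and 19.6 FPKM in mNmC, against 29.1, 21.8 and 24.8 FPKM at 30 °C, and was not called. U14 was higher by 0.75 ± 0.20 as labelled (limma adjusted p = 0.0164) and 0.64 ± 0.15 with 13 libraries, and snR30 was not called in either fit.

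Some heat-responsive guides stayed close to wild type in mNmC once the 2 libraries were left out. snR67 had 88.3 and 97.3 FPKM in mNmC replicates 1 and 2 and 737 in the library labelled replicate 3, against 93.0 to 103 FPKM in wild type at 30 °C. The first 2 lie near the 30 °C level (-0.07 ± 0.11 with 13 libraries, limma adjusted p = 0.602), and after upper-quartile scaling the gene was called lower (-0.30, limma adjusted p = 0.0236). snR40 had 14, 16 and 61.8 FPKM in mNmC, against 12.9 to 17.5 FPKM in wild type at 30 °C, and was not called in either fit. snR66, at 48.9, 41.7 and 101 FPKM in mNmC against 36.2 to 43.5 FPKM, was not called either. snR52 was called in mNmC with 13 libraries alone (1.20 ± 0.42, limma adjusted p = 0.0367), from 11.2 and 6.40 FPKM against 1.58 to 5.93 FPKM in wild type at 30 °C. After upper-quartile scaling its adjusted p was 0.0905.

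Lower in mNmC in both fits were snR49, snR63, snR44 and snR4. snR63, a large-subunit methylation guide, had 48.2, 55.2 and 66.1 FPKM in mNmC, against 108, 101 and 107 FPKM in wild type at 30 °C, without overlap (-0.90 ± 0.16 as labelled, limma adjusted p = 0.00226, and -1.02 ± 0.13 with 13 libraries). snR4 had 80.3, 79.7 and 103 FPKM in mNmC, against 124, 125 and 128 FPKM in wild type at 30 °C. These groups did not overlap either (-0.52 ± 0.16 as labelled, limma adjusted p = 0.0277, and -0.65 ± 0.08 with 13 libraries). snR49 had 80.7, 72.3 and 54.3 FPKM in mNmC, against 139.8 to 150.03 FPKM in wild type at 30 °C (-1.08 ± 0.23 as labelled, limma adjusted p = 0.00524, and -0.92 ± 0.23 with 13 libraries).

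The heat and mNmC comparisons share their wild type libraries at 30 °C, so their values are given side by side only. The direct comparison of mNmC with wild type at 37 °C does not use those controls.

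As labelled, no snR gene was called between mNmC and wild type at 37 °C, where 0% of all rows were called. At unadjusted p under 0.05 limma gave 4 snR genes, and voom on recovered reads called 0. With 13 libraries, 12 were called higher and 17 lower in mNmC than in heated wild type, beside 56.8% of all rows (28% higher, 28.8% lower; limma). Among lower genes averaging 10 FPKM or more were snR67 (-2.95 ± 0.12, limma adjusted p = 7.56e-09), snR52 (-2.92 ± 0.46), snR17a (-2.27 ± 0.12) and snR40 (-2.02 ± 0.40). snR66 (-1.50 ± 0.13), snR37 (-1.28 ± 0.23), snR30 (-1.27 ± 0.16), U1 (-1.25 ± 0.21) and snR5 (-1.22 ± 0.19) were lower too, and so was the rare snR53 (-2.04). Among the higher genes were snR24 (1.37 ± 0.35, limma adjusted p = 0.00546), snR65 (1.11 ± 0.15) and snR39 (1.05 ± 0.11), the first and last of them intron-encoded guides of large-subunit rRNA methylation.

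**Figure D4:**
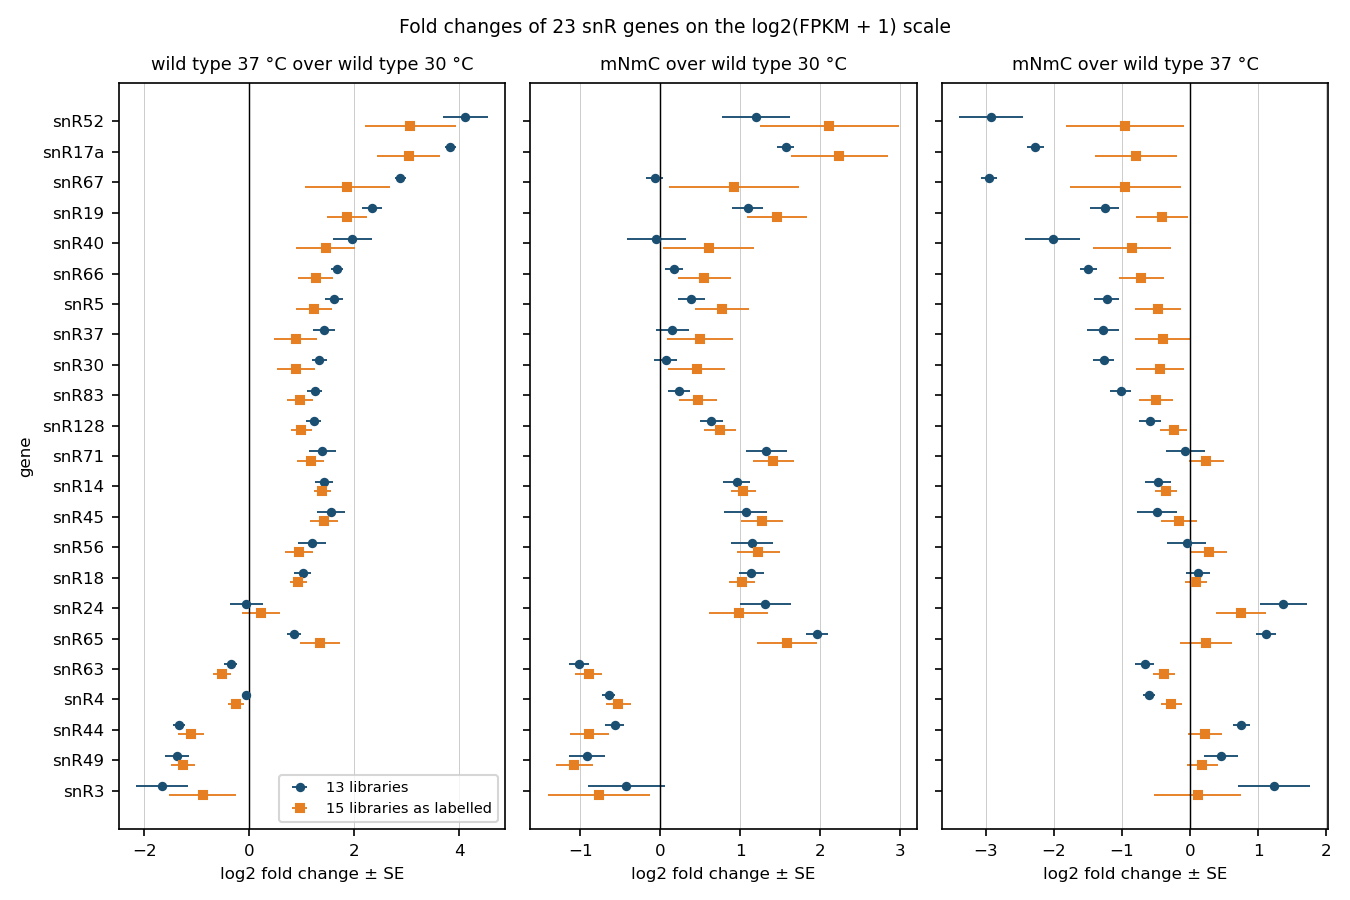
Log2 fold changes ± SE (limma, log2(FPKM + 1) scale) of 23 snR genes, from left to right for wild type at 37 °C over 30 °C, mNmC over wild type at 30 °C and mNmC over wild type at 37 °C. Blue circles use 13 libraries and orange squares all 15 as labelled. snR67 stands at 2.88 in heat and -0.07 in mNmC with 13 libraries, while snR65 stands at 0.85 and 1.96.

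Few or no snR genes were called in the single mutants against wild type at 30 °C, depending on the fit. In mN 22 of 78 snR genes had a fold change above 0, and their median was -0.17 beside 0.03 for all rows. In mC 35 were above 0, with a median of -0.04 beside 0.09 for all rows. In mN, limma called 0 of 78 snR genes as labelled, beside 0.453% of all rows. At unadjusted p under 0.05 there were 9, and voom called 0. With 13 libraries, 1 was called higher and 7 lower, beside 18.2% of all rows (12.8% higher, 5.36% lower). The higher one was snR17a, at 19.7, 16.2 and 17.6 FPKM in mN, against 14.1, 11.2 and 13.8 FPKM in wild type (0.42 ± 0.10, limma adjusted p = 0.0139, against 0.857 as labelled). The lower ones were snR49, snR76, snR46, snR67, snR63, snR83 and snR66, from -0.94 to -0.39 on the log2 scale.

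In mC, limma called 0 snR genes as labelled, beside 0.188% of all rows, with 6 at unadjusted p under 0.05 and 0 called by voom. With 13 libraries snR63 and snR67 were called lower, beside 14.8% of all rows (12.3% higher, 2.45% lower). snR63 had 65.9, 78.9 and 74.5 FPKM in mC and 62.3, 80.8 and 73.7 in mN, against 108, 101 and 107 FPKM in wild type at 30 °C. It lay below wild type in every library of both mutants (-0.53 ± 0.11 in mC, limma adjusted p = 0.0135, and -0.55 ± 0.11 in mN, adjusted p = 0.00896, with 13 libraries). As labelled the adjusted p was 0.237 in mC and 0.229 in mN. snR67 had 75.2, 64.3 and 69.5 FPKM in mC and 58.4, 69.7 and 70.1 in mN, against 93.0 to 103 FPKM in wild type at 30 °C. These libraries did not overlap with wild type either (-0.48 ± 0.10 in mC, limma adjusted p = 0.00954). Of all 6399 rows, 653 were lower than wild type without overlap in mC and 790 in mN. Both single mutants share the wild type libraries. Between mC and mN, 0 snR genes were called in either fit, beside 0.156% of all rows as labelled and 1.03% with 13 libraries (limma). At unadjusted p under 0.05 there were 9 as labelled and 14 with 13 libraries, and voom called 0.

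Intron-encoded snoRNAs can be set beside their host genes, since the intron and the spliced exons come from 1 transcript. Reads on an intron can also come from unspliced host RNA, and their share was not tested. In wild type at 30 °C snR24 had 6.0 to 11.0 FPKM, while its host ASC1 had 4609 to 4713 FPKM. The 8 hosts code for ribosomal proteins (RPL7A, RPL7B, RPS22B and the ribosome-bound ASC1), translation elongation factors (EFB1, TEF4), the ribosome assembly GTPase NOG2 and the nucleotide synthesis enzyme IMD4. In heated wild type with 13 libraries all 8 hosts were called lower than at 30 °C, with log2 fold changes of -2.41 to -0.75 and a median of -1.53. Their snoRNAs had a median of -0.07, with 1 called higher and 3 lower. As labelled, 3 hosts were called lower. Over all rows 18.9% were called lower and 47% higher with 13 libraries, and 5.97% and 32.1% as labelled. In both fits 7 of the 8 snoRNAs had a higher fold change than their host.

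snR18, a large-subunit methylation guide in EFB1, had 70.5, 57.6 and 52.9 FPKM in wild type at 37 °C, against 38.5, 25.2 and 30.1 FPKM at 30 °C. It was higher in every heated library (0.94 ± 0.17 as labelled, limma adjusted p = 0.00171, and 1.02 ± 0.16 with 13 libraries), while EFB1 had -0.55 ± 0.21 (limma adjusted p = 0.0559) as labelled and -0.75 ± 0.10 with 13 libraries. snR39, in RPL7A, had 28.8, 29.9 and 59.2 FPKM in wild type at 37 °C, against 37.4, 37.1 and 42.0 FPKM at 30 °C. Its fold change was -0.06 ± 0.34 as labelled and -0.39 ± 0.10 with 13 libraries, against -2.41 ± 0.15 for RPL7A. snR44 and RPS22B were both lower with 13 libraries, by -1.33 ± 0.12 and -1.75 ± 0.19. snR191, an H/ACA guide in NOG2, was the 1 member below its host (-1.15 ± 0.23 against -0.98 ± 0.11).

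In mNmC with 13 libraries, 4 of these snoRNAs were called higher and 1 lower, and of the hosts 2 were higher and 2 lower (0 and 4 after upper-quartile scaling). Over all rows 40.6% were called higher and 7.39% lower in that fit, and 20.3% and 16.9% after upper-quartile scaling. snR24, a large-subunit guide in ASC1, had 20.3, 22.3 and 10.1 FPKM in mNmC, against 11, 6.0 and 7.52 FPKM in wild type at 30 °C. It was called with 13 libraries (1.32 ± 0.32, limma adjusted p = 0.00575) and not as labelled (0.98 ± 0.37, adjusted p = 0.0650). With 13 libraries ASC1 changed by -0.63 ± 0.16 (adjusted p = 0.00880). snR18 was higher by 1.14 ± 0.16 with 13 libraries and 1.02 ± 0.17 as labelled, and EFB1 had -0.12 ± 0.10 with 13 libraries. In both fits 6 of the 8 snoRNAs had a higher fold change than their host. The exceptions with 13 libraries were snR44 (-0.57 ± 0.12, RPS22B -0.08 ± 0.19) and snR191 (-0.51 ± 0.23, NOG2 0.46 ± 0.11).

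**Figure D5:**
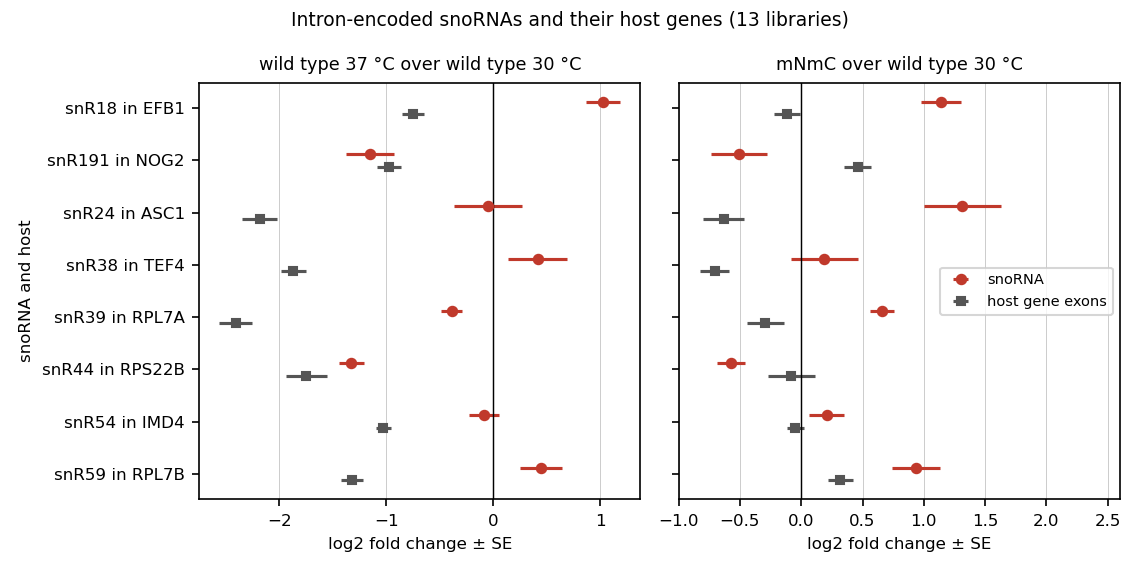
Log2 fold changes ± SE (13 libraries) of the 8 intron-encoded snoRNAs (red circles) and the exons of their host genes (grey squares), for wild type at 37 °C over 30 °C on the left and mNmC over wild type at 30 °C on the right. All 8 hosts lie below 0 in heat, from -2.41 to -0.75, and 7 of the 8 snoRNAs lie to the right of their host.

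The 17 clustered genes make up 5 clusters, and genes of 1 cluster share a precursor but not a level. In the largest, snR78, snR77, snR76, snR75, snR74, snR73 and snR72 lie in that order, and their mean levels were 20.5, 9.73, 13.4, 3.89, 1.90, 0.0584 and 4.47 FPKM. In the cluster of snR41, snR70 and snR51 the means were 104, 51.4 and 4.42 FPKM. In that of snR57, snR55 and snR61 they were 99.8, 21.1 and 34.3 FPKM. The snR67 and snR53 means were 211 and 1.98 FPKM, and those of snR190 and snR128 were 6.56 and 30.2 FPKM. The first gene had the highest mean in 4 of the 5 clusters, and snR190 before snR128 was the exception.

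The proteins that hold or make snoRNAs were followed as fixed lists. In heated wild type with 13 libraries, all 4 box C/D core proteins were called lower (NOP56 by -1.66, NOP1 by -1.25) and so were all 4 H/ACA core proteins (GAR1 by -1.76, NHP2 by -1.46). As labelled, NOP1 and NOP56 were called lower and no H/ACA protein was. Of 9 snoRNP assembly factors, 2 were called higher and 3 lower with 13 libraries (HIT1 by 0.64, RVB1 by -0.63), and 2 higher and 0 lower as labelled. Of 30 genes of snoRNA processing and decay, 3 were called higher and 13 lower with 13 libraries, and 2 and 1 as labelled. Over all rows, 47% were called higher and 18.9% lower with 13 libraries, and 32.1% and 5.97% as labelled. Among the lower ones with 13 libraries were MTR4, the helicase that feeds the exosome (-1.29), LHP1, the La protein (-0.91), RRP6, the nuclear exosome nuclease (-0.75), and RAT1, a nuclear nuclease that trims from the front end (-0.69). After upper-quartile scaling with 13 libraries, the assembly list had 1 higher and 6 lower and the processing list 1 higher and 21 lower, beside 34.3% of all rows higher and 30% lower.

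In mNmC with 13 libraries the same lists had 0 of 4 box C/D proteins called, 1 of 4 H/ACA proteins higher (NHP2 by 0.32, not called after upper-quartile scaling), 6 of 9 assembly factors higher and 15 of 30 processing genes higher, with none called lower. Over all rows in that fit 40.6% were called higher and 7.39% lower. The highest were MPP6, an exosome cofactor (1.13), TAH1 and HIT1, assembly factors (1.01 and 0.99), and RRP43, an exosome subunit (0.95). As labelled, 0, 0, 3 and 3 genes were called, all higher. The median of the processing list was 0.31 with 13 libraries, beside 0.25 for all rows. After upper-quartile scaling the processing list had 9 higher and 2 lower and the assembly list 4 higher and 0 lower, beside 20.3% and 16.9% of all rows.

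Other stable RNAs without a poly(A) tail were measured in the same oligo(dT)-selected libraries. SCR1, which scaffolds the signal recognition particle, had 1246 and 1274 FPKM in heated replicates 1 and 2 and 226 in replicate 3, against 31.7 to 34.4 FPKM at 30 °C. RPR1, the RNA of RNase P, had 242 and 245 FPKM and 93.2 in replicate 3, against 15.1 to 16.7 FPKM at 30 °C. All 4 of SCR1, RPR1, NME1 and LSR1 (the U2 RNA) were called higher in heat in both fits, with a median of 2.79 as labelled and 3.39 with 13 libraries. Over all rows 32.1% were called higher as labelled and 47% with 13 libraries. In mNmC with 13 libraries 3 of the 4 were called higher, SCR1 by 2.91, RPR1 by 2.59 and NME1 by 0.83, beside 40.6% of all rows. Summed transfer RNA rows stood at 3324 and 3458 FPKM in heated replicates 1 and 2 and 3407 in the library labelled mNmC replicate 3. The library labelled 37 °C replicate 3 had 1048 FPKM and mNmC replicates 1 and 2 had 1017 and 1117. Wild type at 30 °C had 905 to 1097 FPKM, mN 1041 to 1455 and mC 1219 to 1279. These RNAs were thus higher in heated replicates 1 and 2, as were the snR genes that rose in heat. In mNmC replicates 1 and 2 the transfer RNA sums lay near wild type at 30 °C, unlike SCR1 and RPR1. The part of these RNAs in the snR results was not tested.

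Motifs were sought in the 250 bases before each gene, on both strands, in the R64 genome. An Hsf1 element (GAA, any 2 bases, TTC, any 2 bases, GAA) stood before 0 of the 68 snoRNA genes outside introns and before 0.710% of 6476 genes. The stress element AGGGG stood before 8 of the 68 (11.8%), against 18.3% of all genes. ACCCTA, the core of the motif of Tbf1, a factor known at snoRNA promoters in yeast, stood before 10 of the 68 (14.7%), against 5.59% of all genes. Matches of different motifs may share bases, the upstream stretch can hold other genes, and a match is no evidence of binding.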

How the data were processed

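Saccharomyces cerevisiae RNA was sequenced in 15 libraries, 3 biological replicates in each of 5 groups. Hot phenol extraction was followed by oligo(dT) selection and random hexamer priming, per the labels' protocols. The deposited values are FPKM, which the authors normalised to gene length and counted reads. Tools named in the submitters' processing notes are TopHat2 2.0.12, Bowtie2 2.2.3 and HTSeq 0.6.1. Filters, build and annotation were not given in the sources used here, and coordinates are left out. Sequences, classes and neighbouring genes came from RefSeq R64. FPKM times R64 gene length gave whole reads, within 0.01 read, for 98.8 to 99.1% of single-exon genes per library.

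The members and lists were chosen with earlier results of these data known. Values were tested as log2(FPKM + 1) with limma 3.58.1 in R 4.3.3, with a variance trend, for the 6399 rows that reached 1 FPKM in 3 libraries or more. Group means were fitted over the 15 libraries together (10 residual degrees of freedom, and 8 with 13 libraries). Benjamini-Hochberg adjustment ran over all tested rows in each of 6 comparisons. The pseudocount understates changes of low genes. Named genes were, per comparison and fit, up to 8 called snR genes of at least 10 FPKM with the largest change, the 10 most abundant, those with fixed roles or in introns, those nearest the filter and up to 4 of each protein list. Others, among them snR37, snR189 and the cluster members, were named after their values were seen. The fits were tested on simulated data. Figures and tables used Python 3.11.15, pandas 2.3.3, numpy 2.4.6 and matplotlib 3.10.9.

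The alternatives were upper-quartile scaling (75th percentile), no trend, no filter (6780 rows), a filter at 10 FPKM (5638 rows), another pseudocount (0.1), a block for replicate number, only the 2 groups compared, 13 libraries, each library left out, and voom in limma on whole reads recovered from the FPKM (5862 rows, with all 78 tested snR genes). Chosen after seeing the data were 13 libraries with the block, with the pseudocount of 0.1 and with voom.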

Additional observations from a re-analysis of the deposited data

How the results depend on the processing

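The heat comparison (33 snR genes called) and the mNmC comparison (27) kept their counts within 1.5 times under upper-quartile scaling (27 and 18), no trend (32 and 25), no filter (31 and 25), the filter at 10 FPKM (29 and 23), the pseudocount of 0.1 (29 and 24), the 2 groups alone (25 and 24), voom (29 and 24) and 13 libraries (47 and 31). Leaving out 1 library gave 18 to 41 in heat and 16 to 35 in mNmC. The lowest came without wild type at 30 °C replicate 2 (18 and 16), and heat gave 21 without either 37 °C replicate 1 or 2. The cause was not tested. In mN, mC and mNmC against 37 °C, 0 were called with all 15 libraries and under every single left-out library. With 13 libraries 8, 2 and 29 were called, with upper-quartile scaling besides 11, 4 and 30, with the pseudocount of 0.1 besides 8, 2 and 27, and with voom besides 7, 2 and 28. A fit on the 2 groups alone gave 5 in mN and 11 in mC. All of these fits leave out the 2 libraries that stand apart, which are labelled neither as a single mutant nor as wild type at 30 °C. The fold changes in mN and mC were the same with 15 and 13 libraries (medians of -0.17 and -0.04). For these mutants only the pooled spread and its degrees of freedom differed between those fits. The cause was not tested. Between mC and mN 0 were called in every fit.

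With the replicate number as a replicate block, 28 were called in heat and 25 in mNmC, and with 13 libraries and the replicate block 45, 34, 9 in mN, 3 in mC and 29 in mNmC against 37 °C. In no comparison did every pair of same-numbered libraries correlate above 0.1 in their deviations. These deviations are from the means of the labelled groups, so the 2 libraries that stand apart weigh on those of mNmC and 37 °C. Whether same-numbered libraries are paired therefore cannot be decided from them. Between mC and mN the same-numbered correlations were 0.128, 0.0544 and 0.145, and the others lay from -0.183 to 0.0721. In heat each library correlated best with its own number, a pattern of the data and not the design. In mNmC against wild type at 30 °C the pattern was the reverse. There the same-numbered correlations were -0.0423, -0.0573 and -0.0804, each the lowest for its mNmC library. Low counts limit genes under 10 reads per library, of which there were 12.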
